A study of Mus musculus with 16 samples.

Results

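Proteasome subunit genes were taken by name, as every gene whose symbol starts with Psma, Psmb, Psmc or Psmd and a digit and that is not marked as a pseudogene, with a mean of at least 1 TPM (a transcript level corrected for length and expressed so that each library sums to 1e+06) in at least 1 tissue. The rule kept 38 of the 33641 genes listed. It found 40 symbols, after 4 pseudogene symbols were set aside, and left out Psma8, a testis subunit that reached at most 0.987 TPM in any library, and Psmb11, the thymus-specific catalytic subunit, at most 0.364 TPM. Psmc3ip matched by its letters alone: it encodes a protein that binds the subunit Psmc3 and acts in meiosis, so it is counted apart, which leaves 37 genes. These are 7 of the alpha rings, 10 of the beta rings (3 constitutive catalytic, 3 immunoproteasome catalytic and 4 non-catalytic), 6 ATPases and 11 other subunits of the regulatory particle, and 3 chaperones that assemble that particle.

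The proteasome degrades proteins that carry chains of ubiquitin. Its 20S core is a stack of outer alpha and inner beta rings whose beta subunits Psmb6, Psmb7 and Psmb5 cut the substrate, and its 19S regulatory particle recognises, unfolds and feeds the substrate in, with a base of ATPases (Psmc genes) and a lid and scaffold (most Psmd genes). In leukocytes, and in other cells exposed to interferon, Psmb9, Psmb10 and Psmb8 take the places of Psmb6, Psmb7 and Psmb5 in newly built cores, which are then called immunoproteasomes and supply peptides to MHC class I. Heart muscle uses the proteasome in the turnover of sarcomere proteins, and in mouse brown fat Nfe2l1 keeps proteasome activity up in the cold.

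RNA was sequenced from whole left ventricle and whole subcutaneous white adipose tissue (scWAT) of C57BL/6J mice aged 28 weeks, labelled either Adipo-HuR KO (here KO, to lack the RNA-binding protein HuR, gene Elavl1, in adipocytes) or wild-type (WT). The labels used here do not name the promoter that drives the deletion or the sex of the mice. Heart was represented by KO mice A25, A29, A30 and A31 and WT mice A5, A7, A8 and A14, and scWAT by KO mice A24, A26 and A30 and WT mice A5, A7, A8, A12 and A14. Every library of a group came from another mouse. Adipoq, a hormone of fat cells, was between 3300 and 6920 TPM in every scWAT library and at most 1.72 TPM in heart, and Myh6, a cardiac myosin, was between 1012 and 4769 TPM in every heart library and at most 0.146 TPM in scWAT. Depth is unknown for TPM, so the spread between mice is the only error given.

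Several libraries stood apart before any proteasome gene was considered. Elavl1 was not lower in scWAT labelled KO (42.9, 42.0 and 36.2 TPM in A24, A26 and A30, against 33.4, 34.5, 27.6, 19.5 and 18.97 TPM in WT), so directions below hold for the libraries as labelled. In heart, KO mouse A29 had the marker levels of WT hearts: 7 macrophage markers summed to 143 TPM in A29 and to between 1175 and 1466 TPM in the other KO hearts, against 148 to 234 TPM in WT hearts. In scWAT, KO mouse A26 carried lymphocyte transcripts, with 6 B cell markers summing to 512 TPM and 7 T cell markers to 483 TPM, against at most 22.5 and 19.98 TPM in any other scWAT library. KO mice A24 and A30 carried skeletal muscle transcripts in scWAT, with 9 markers summing to 4437 and 8874 TPM, against 56.1 to 957 TPM in WT. The main heart results are therefore given with and without A29, and the main scWAT results with and without A26. Because A29 was left out for its likeness to WT hearts, p-values and calls without it are biased towards a difference. They describe the remaining hearts only. In whole tissue, fewer cells of a type and less RNA per cell cannot be told apart.

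Promoters of a constitutive catalytic gene and of its immunoproteasome counterpart are shown for 2 of the 3 pairs, because the values below set these genes against each other. They run from 250 bases before to 50 bases after the transcription start, were taken from RefSeq (build GRCm38.p6), and are written 5′ to 3′ on the strand of the gene, with capitals at matches to TGACNNNGC, the core of the antioxidant response element that Nfe2l1 and Nfe2l2 can bind. Psmb5 lies at chr14:54617946-54618245 on the minus strand, Psmb8 at chr17:34197945-34198244 on the plus strand, Psmb6 at chr11:70525107-70525406 on the plus strand and Psmb9 at chr17:34187281-34187580 on the minus strand.
Psmb5: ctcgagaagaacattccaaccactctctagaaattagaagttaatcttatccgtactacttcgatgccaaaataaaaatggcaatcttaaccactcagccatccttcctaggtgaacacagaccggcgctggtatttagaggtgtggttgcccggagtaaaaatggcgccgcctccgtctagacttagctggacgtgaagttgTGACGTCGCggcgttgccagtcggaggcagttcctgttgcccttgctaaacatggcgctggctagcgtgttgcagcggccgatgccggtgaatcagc
Psmb8: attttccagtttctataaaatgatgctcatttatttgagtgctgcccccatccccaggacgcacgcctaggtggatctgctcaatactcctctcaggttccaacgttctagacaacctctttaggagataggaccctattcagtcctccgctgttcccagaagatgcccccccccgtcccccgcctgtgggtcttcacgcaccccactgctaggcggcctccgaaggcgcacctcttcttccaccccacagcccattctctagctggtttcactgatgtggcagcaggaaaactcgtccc
Psmb6: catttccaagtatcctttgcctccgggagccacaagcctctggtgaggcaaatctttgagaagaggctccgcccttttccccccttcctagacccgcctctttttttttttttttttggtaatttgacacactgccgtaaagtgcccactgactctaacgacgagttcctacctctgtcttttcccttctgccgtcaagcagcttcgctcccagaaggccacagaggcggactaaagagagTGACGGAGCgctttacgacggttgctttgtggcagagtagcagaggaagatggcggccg
Psmb9: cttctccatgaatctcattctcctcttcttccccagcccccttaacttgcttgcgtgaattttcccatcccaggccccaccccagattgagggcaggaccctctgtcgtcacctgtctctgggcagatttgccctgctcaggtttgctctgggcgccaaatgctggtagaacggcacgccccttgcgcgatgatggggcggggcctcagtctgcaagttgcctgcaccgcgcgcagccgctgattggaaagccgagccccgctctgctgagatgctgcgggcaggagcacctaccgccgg
The match began 47 bases before the start in Psmb5 and 9 bases before it in Psmb6. Of the 37 genes, 31 had a promoter in the table, and 5 of those 31 (16.1%) held the TGACNNNGC core on either strand, against 12.5% of the 27025 gene promoters. These were Psmb5, Psmb6, the ATPase Psmc6, the lid subunit Psmd12 and the chaperone Psmd9. GAAANNGAA, a core of the interferon response element, was found in 4 of the 31 (12.9%), against 8.57% of all promoters: in Psmb3, Psmb4, Psmd4 and Psmd9. Neither set of letters was found in these windows of Psmb8, Psmb9 and Psmb10. Psmb1, Psmb2, Psmb7, Psmc3, Psmd3 and Psmd7 had no listed promoter and were not searched.

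**Figure D1:**
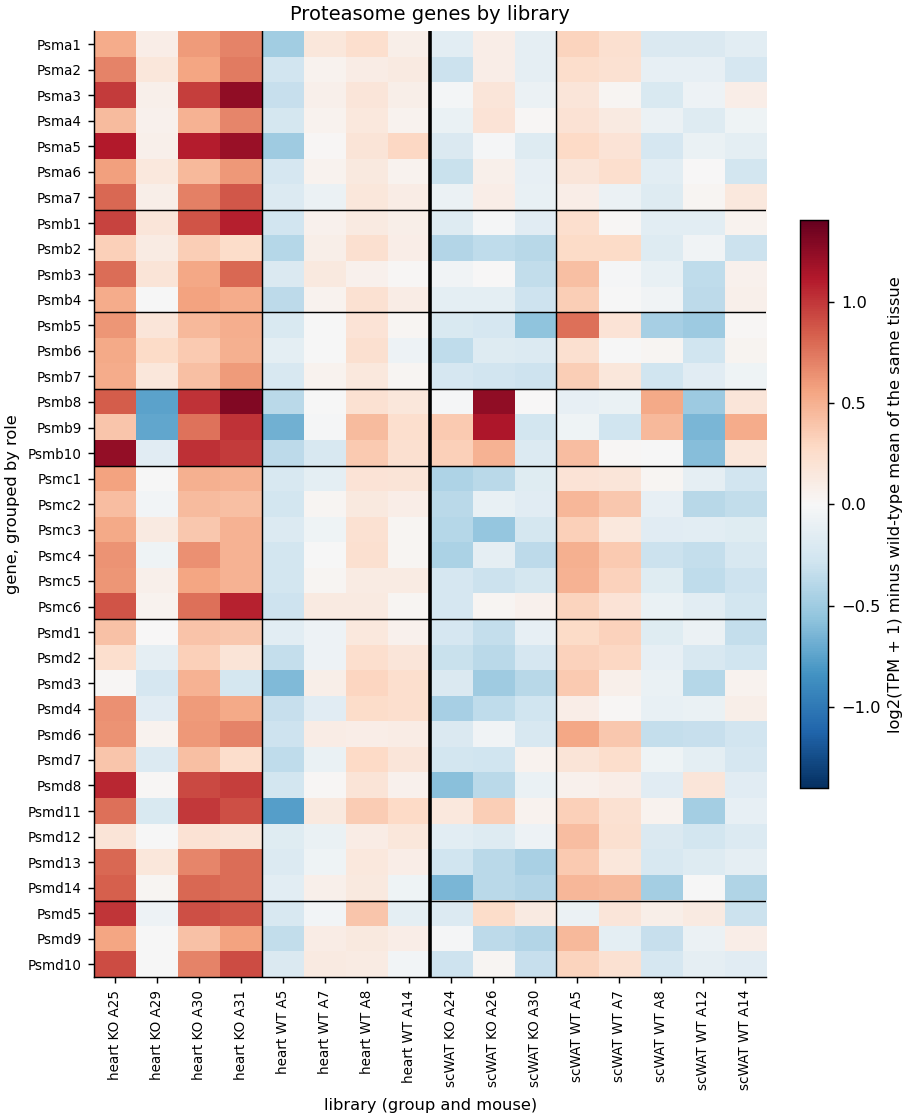
Each of the 37 genes (rows, grouped by role) in each library (columns), as log2(TPM + 1) minus the mean of the WT libraries of the same tissue; red is above that mean and blue below it. KO hearts A25, A30 and A31 are red in nearly every row and A29 is pale, while Psmb8 and Psmb9 are blue in heart A29 and dark red in scWAT A26.

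In the heart, all 37 genes had a higher mean log2 level in KO than in WT, as did 72.4% of all genes tested. None of the 37 passed the test when all 4 KO hearts were used. Together they took 0.280, 0.187, 0.270 and 0.284% of all TPM in KO hearts A25, A29, A30 and A31, against 0.148, 0.182, 0.205 and 0.192% in WT hearts A5, A7, A8 and A14. Hearts A25, A30 and A31 were above every WT heart and A29 lay within the WT range. The median log2 fold change (KO over WT, on log2(TPM + 1)) of the 37 was 0.44, from 0.0042 for Psmd3 to 0.87 for Psma5; with median-of-ratios scaling (each library divided by its median ratio to the average library) it was 0.12. The median of all 11981 genes tested was 0.26, so the 37 stood 0.18 above it, and 33 of 37 were above it. By limma with Benjamini-Hochberg adjustment over all genes, 0 of 37 passed an adjusted p of 0.05, as did 0.0501% of all genes. At an unadjusted p under 0.05, 21 of 37 were higher and 0 lower, against 20.9% and 3.66% of all genes. The 4 KO values lay above all 4 WT values for 7 of 37 (Psma2, Psma6, Psmb1, Psmb3, Psmb6, Psmb7 and Psmd13), against 3.71% of all genes, and below them for none, against 0.634%.

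A29 was left out for its likeness to WT hearts, so calls made without it are biased towards a difference. Without A29, 30 of the 37 rose and 0 fell, against 34.8% and 4.16% of all genes called in each direction by the same limma test. Their median log2 fold change was then 0.59, which is 0.20 above the all-gene median of 0.39. The KO values lay above all WT values for 33 of 37, against 45.3% of all genes, and below them for 0, against 441 of 12081 genes. The 7 that did not pass were Psmb2, Psmb9, Psmd2, Psmd3, Psmd7, Psmd9 and Psmd12. The count depended on scaling. With median-of-ratios scaling and without A29, their median was 0.0877 and 5 passed as higher and 1 as lower, against 19.9% and 20.6% of all genes. The 5 were Psma5 (0.64), Psmb10 (0.58), Psmb8 (0.57), Psma3 (0.56) and Psmd5 (0.47), and the 1 was Psmd3 (−0.41). With mitochondrially encoded genes removed and without A29, 21 rose and 0 fell, against 29.3% and 9.32%. Mitochondrially encoded transcripts took 43.4 to 55.7% of TPM in KO hearts, the highest of them A29, and 51.9 to 60.6% in WT hearts.

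The same hearts also differed in cell type markers. All 7 macrophage markers had a positive fold change (summed level 143 to 1466 TPM in KO, 148 to 234 TPM in WT, none at 0 in any heart), as did all 4 pan-leukocyte markers (8.99 to 105 TPM in KO, 9.54 to 20.6 TPM in WT) and all 6 fibroblast markers (239.5 to 3240 TPM in KO, 196 to 299 TPM in WT). Of 7 cardiomyocyte markers 6 had a negative fold change (summed level 21970 to 29010 TPM in KO, 23130 to 32170 TPM in WT), and without A29 3 fell, Myh6, Tnni3 and Myl2. The other, Nppa, an atrial hormone that ventricles make under load, had 6980, 52.7, 5021 and 5380 TPM in KO hearts A25, A29, A30 and A31, against 108 to 313 TPM in WT hearts. The 3 hearts with the high macrophage, leukocyte, fibroblast and Nppa values were the 3 with the high proteasome share. The part of these cells in the proteasome values was not tested.

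Among the alpha rings, which gate the core, all 7 genes stood above the all-gene median, with a median log2 fold change of 0.53. Psma5 had 57.0, 27.3, 56.5 and 61.1 TPM in KO hearts A25, A29, A30 and A31, against 18.1, 26.2, 29.6 and 32.0 TPM in WT hearts A5, A7, A8 and A14. The 3 high KO values were above every WT value, and A29 lay inside the WT range. Its log2 fold change was 0.87 ± 0.28 (SE; limma adjusted p = 0.142), and 1.14 ± 0.20 without A29 (adjusted p = 0.00178). Psma3 had 87.3, 46.1, 87.0 and 105 TPM in KO hearts, against 34.9, 46.0, 49.4 and 46.6 TPM in WT hearts. Again only A29 overlapped WT, and the log2 fold change was 0.82 ± 0.26 (limma adjusted p = 0.142) with it and 1.06 ± 0.16 without it (adjusted p = 0.000848). The other 5, Psma1, Psma2, Psma4, Psma6 and Psma7, had log2 fold changes between 0.42 and 0.62.

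Of the beta subunits that do not cut, Psmb1 and Psmb3 did not overlap between the groups and Psmb2 and Psmb4 did. Psmb1 had 141, 81.9, 134.5 and 156 TPM in KO hearts, against 60.0, 75.9, 79.3 and 77.3 TPM in WT hearts. Its A29 value was just above the highest WT value. Its log2 fold change of 0.77 ± 0.22 had the smallest unadjusted p of the 37 (0.00498; limma adjusted p = 0.142), and was 0.97 ± 0.14 without A29 (adjusted p = 0.000706). Psmb3 had 117, 76.5, 98.3 and 118 TPM in KO hearts, against 58.2, 73.8, 69.9 and 68.0 TPM in WT hearts, for a log2 fold change of 0.58 ± 0.19 (limma adjusted p = 0.142).

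The 3 constitutive catalytic genes differed between the groups by nearly the same amount. Psmb5, the chymotrypsin-like subunit, had 123, 90.0, 109 and 114 TPM in KO hearts, against 68.5, 79.7, 91.4 and 81.3 TPM in WT hearts. Psmb6, the caspase-like subunit, had 136, 113, 122 and 133 TPM in KO hearts, against 85.0, 93.4, 109.7 and 89.2 TPM in WT hearts. Psmb7, the trypsin-like subunit, had 138, 107, 128 and 145.5 TPM in KO hearts, against 81.9, 98.9, 106 and 97.9 TPM in WT hearts. For Psmb6 and Psmb7 every KO heart was above every WT heart, and for Psmb5 A29 was below 1 WT heart. The log2 fold changes were 0.44 ± 0.17, 0.41 ± 0.16 and 0.42 ± 0.17 for Psmb5, Psmb6 and Psmb7 (limma adjusted p = 0.164, 0.159 and 0.166). Without A29 they were 0.53, 0.47 and 0.51, all 3 past the threshold (adjusted p = 0.0147, 0.0220 and 0.0147). With median-of-ratios scaling as well, none of the 3 passed, at 0.0185, −0.04 and 0.0039 (limma adjusted p = 0.945, 0.880 and 0.989).

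The 3 immunoproteasome genes were spread more widely over the KO hearts. Psmb8 had 19.4, 5.75, 21.9 and 26.9 TPM in KO hearts, against 7.76, 10.3, 12.2 and 11.7 TPM in WT hearts. Psmb9 had 6.45, 2.44, 8.62 and 10.45 TPM in KO hearts, against 2.56, 4.65, 6.77 and 5.72 TPM in WT hearts. Psmb10 had 55.0, 20.4, 47.6 and 46.1 TPM in KO hearts, against 17.6, 19.5, 29.7 and 26.9 TPM in WT hearts. A29 held the lowest heart value of Psmb8 and of Psmb9, KO and WT together, and the A25 value of Psmb9 was below 1 WT value. The log2 fold changes were 0.60 ± 0.40, 0.36 ± 0.39 and 0.77 ± 0.31 (limma adjusted p = 0.354, 0.575 and 0.168). Without A29 they were 1.05 ± 0.20, 0.72 ± 0.29 and 1.08 ± 0.20, and Psmb8 and Psmb10 passed (adjusted p = 0.00314 and 0.00276) and Psmb9 did not (adjusted p = 0.0746).

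**Figure D2:**
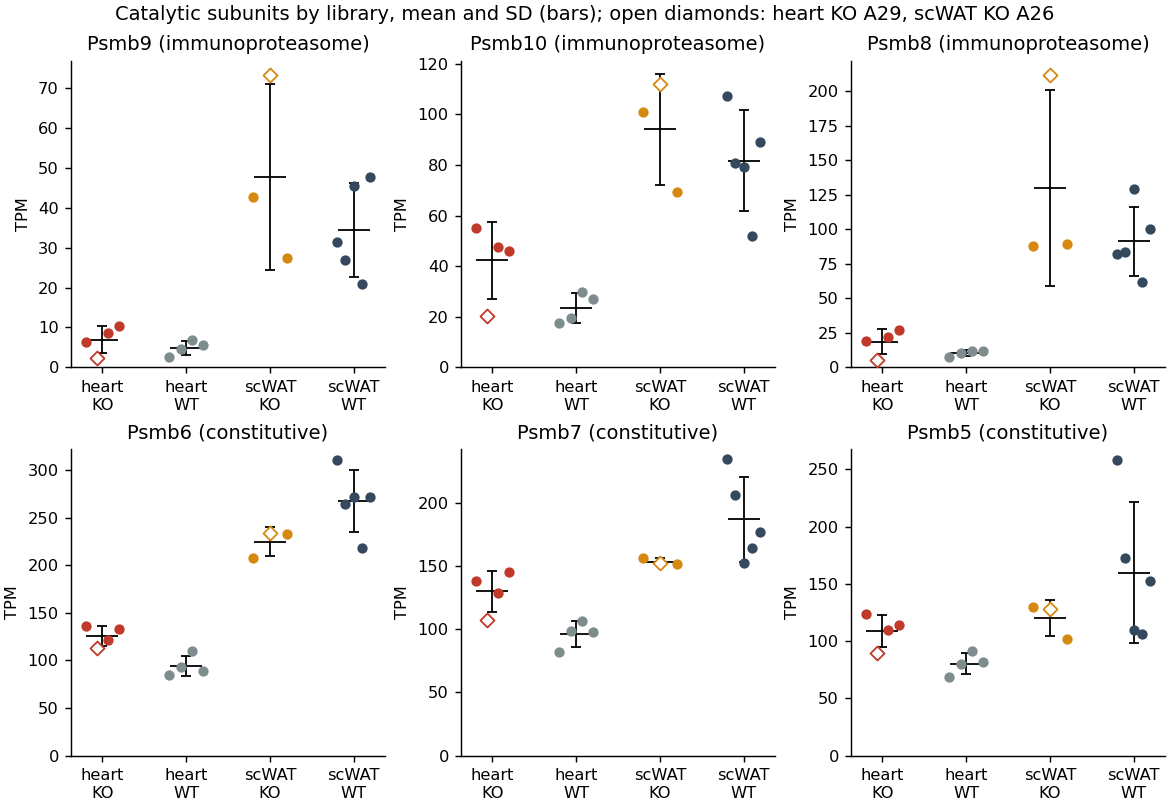
TPM of the 3 immunoproteasome genes (top) and of the constitutive gene that each replaces (bottom) in every library, by tissue and genotype; crosses and bars are the mean and SD, and open diamonds are heart KO A29 and scWAT KO A26. Psmb8 and Psmb9 are highest in scWAT A26 (211 and 73.1 TPM), and the constitutive genes are not.

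In the 19S particle, all 6 ATPases had a positive fold change in heart, from 0.32 (Psmc2) to 0.69 (Psmc6), and without A29 all 6 passed, against 34.8% of all genes. With median-of-ratios scaling and without A29, 0 of 6 passed, at −0.07 (Psmc2) to 0.40 (Psmc6). The 11 other subunits were the most varied group. Psmd8, a lid subunit, had 97.8, 47.1, 89.0 and 91.9 TPM in KO hearts, against 38.9, 47.1, 52.8 and 48.6 TPM in WT hearts, and its log2 fold change was 0.74 ± 0.24 (limma adjusted p = 0.142; 0.98 ± 0.15 and adjusted p = 0.000716 without A29). Psmd3, another lid subunit, had 38.9, 32.4, 54.1 and 32.2 TPM in KO hearts, against 24.6, 40.6, 47.7 and 45.4 TPM in WT hearts. Its groups overlapped in part, and its log2 fold change was 0.0042 ± 0.26 (limma adjusted p = 0.993). Psmd2 and Psmd1, the scaffold subunits, stood at 0.16 and 0.30, Psmd4, a ubiquitin receptor, at 0.41, and Psmd14, which removes ubiquitin from the substrate, at 0.61. The chaperones Psmd5, Psmd9 and Psmd10 stood at 0.68, 0.38 and 0.63 at means of 9.57, 10.03 and 7.49 TPM in KO, against 5.44, 7.44 and 4.33 TPM in WT.

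**Figure D3:**
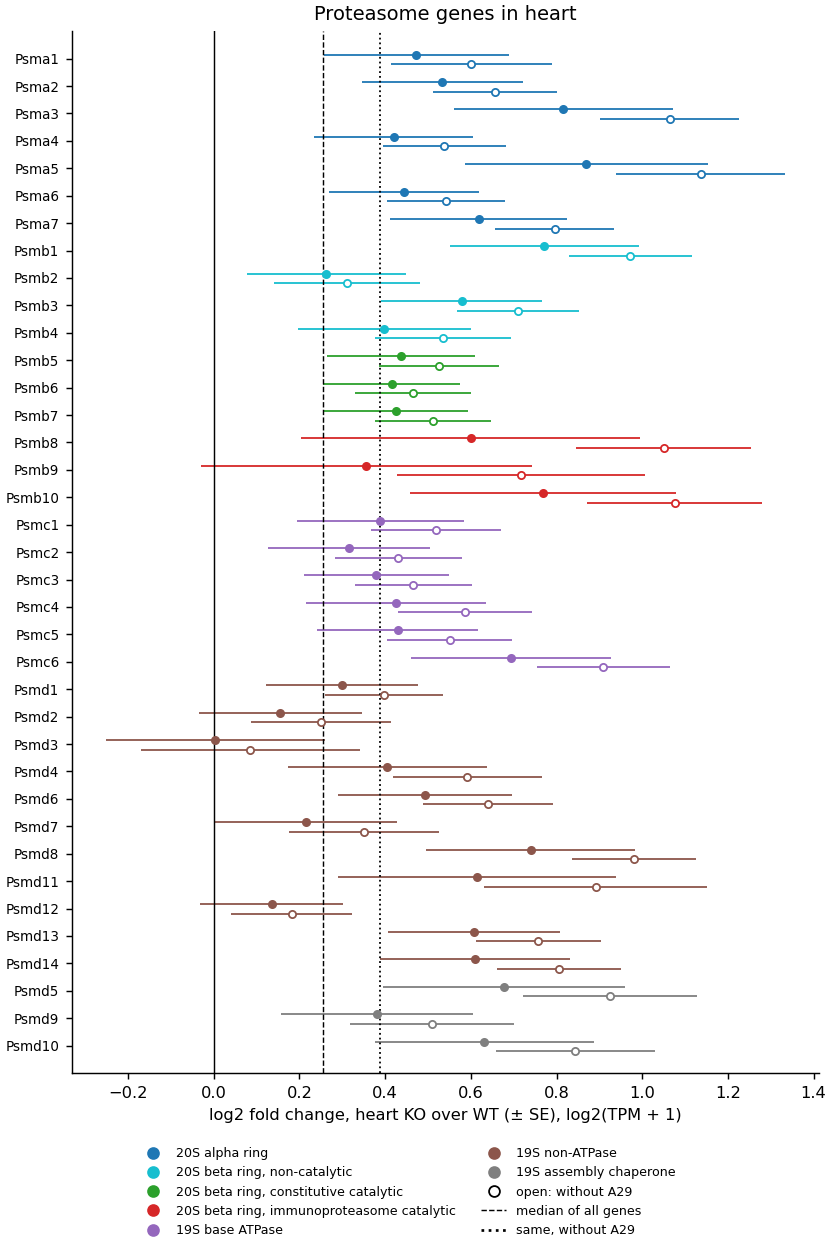
Log2 fold change of KO over WT heart, with its SE, for each of the 37 genes, coloured by role; filled points use all 4 KO hearts and open points leave out A29. The dashed and dotted lines are the medians of all genes tested (0.26 with A29 and 0.39 without it), and Psmd2, Psmd3, Psmd7 and Psmd12 lie below their line in both fits.

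Genes that work with the proteasome did not all stand on the same side. The counts below stand beside 72.4% of all genes with a positive fold change in heart, and 34.8% higher and 4.16% lower by limma without A29. Of 5 activators and inhibitors, 0 passed in heart with all libraries, and without A29 2 rose and 1 fell. Psme4 (PA200), an activator cap independent of ubiquitin, had 37.3, 65.7, 51.6 and 43.1 TPM in KO hearts, against 64.6, 70.1, 75.2 and 76.96 TPM in WT hearts. Only A29 reached into the WT range, and the log2 fold change was −0.56 ± 0.20 (limma adjusted p = 0.150) with it and −0.70 ± 0.15 without it (adjusted p = 0.00585). Psme2, a subunit of the interferon-inducible PA28 cap, had 65.8, 37.4, 65.1 and 68.0 TPM in KO hearts, against 29.95, 37.8, 41.5 and 38.4 TPM in WT hearts, and stood at 0.64 ± 0.23 (limma adjusted p = 0.149; 0.84 and 0.00215 without A29). Its partner in that cap, Psme1, stood at −0.17 (limma adjusted p = 0.544). The value of Psme2 depends on how reads were shared with its close copy Psme2b.

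Of 15 assembly and associated factors, 0 passed and 14 were positive in heart, 7 of them above the median of all genes, and 6 rose without A29. The 2 with the smallest p were Sem1, a small lid subunit, at 0.71 ± 0.22, and Pomp, the chaperone that closes the core, at 0.59 ± 0.20 (limma adjusted p = 0.142 and 0.149). Pomp had 109, 70.2, 112 and 111 TPM in KO hearts, against 52.9, 73.5, 70.6 and 67.5 TPM in WT hearts. Of 7 regulators of proteasome genes, 0 passed, and without A29 2 rose and 1, Foxo3, fell. With all hearts Foxo3, which drives protein breakdown in muscle, was at −1.003 ± 0.34 (limma adjusted p = 0.145) and Nfe2l1, which restores proteasome gene expression when proteasomes are inhibited, at −0.43 ± 0.20 (adjusted p = 0.213). Nfe2l1 had 142, 153, 176 and 113.5 TPM in KO hearts, against 148, 197, 236 and 209 TPM in WT hearts, which overlapped. Of 9 ubiquitin genes 0 passed, and 4 rose without A29, with Rps27a, a fusion of ubiquitin and a ribosomal protein that has many near-identical copies, at 1.29 ± 0.32 (limma adjusted p = 0.142) and Uba6, a ubiquitin-activating enzyme, at 0.51 ± 0.26 (adjusted p = 0.251). Of 13 genes of MHC class I presentation 0 passed and 11 were positive, and 7 rose without A29. Pdia3 and Calr, chaperones of the peptide-loading complex, stood at 1.20 ± 0.38 and 0.82 ± 0.29 (limma adjusted p = 0.142 and 0.150).

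In scWAT, 30 of the 37 genes had a lower mean log2 level in KO than in WT. A higher one was found in 7 of 37, against 53.9% of all genes tested, and none of the 37 passed the test. The 37 took 0.400, 0.450 and 0.413% of TPM in KO scWAT A24, A26 and A30, against 0.580, 0.525, 0.434, 0.417 and 0.443% in WT scWAT A5, A7, A8, A12 and A14. WT mice A5 and A7 held the 2 highest values, and the other 3 WT values overlapped KO. The median log2 fold change was −0.19, against 0.03 for all 13682 genes tested. By limma, 0 of 37 passed the adjusted p, as did 0.0219% of all genes. At an unadjusted p under 0.05, 0 were higher and 5 lower, against 8.11% and 7.52% of all genes. The groups did not overlap for 4 (all lower in KO), against 5.23% of all genes higher and 5.06% lower. Without A26, 34 were negative and 3 positive, the median was −0.21, and 0 passed, against 0.968% of all genes. The scWAT groups also differed in other markers: 5 brown adipocyte markers summed to 116, 488 and 301 TPM in KO scWAT, against 45.4 to 95.96 TPM in WT scWAT, which did not overlap, and 4 of the 4 tested had a positive fold change (limma unadjusted p under 0.05, 0 adjusted). Their part in the proteasome values, and that of the skeletal muscle markers, was not tested.

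The 5 with an unadjusted p under 0.05 were Psmd4, Psmc3, Psmb2, Psmd8 and Psmd13. Psmd4 had 147, 159 and 168 TPM in KO scWAT, against 217, 206, 189, 191 and 216 TPM in WT scWAT. Its groups did not overlap, and its log2 fold change was −0.36 ± 0.12 (limma adjusted p = 0.237). Psmc3, an ATPase, had 141, 128 and 157.5 TPM in KO scWAT, against 236, 207, 167, 169 and 166 TPM in WT scWAT, for −0.40 ± 0.16 (limma adjusted p = 0.294). Psmb2 and Psmd8 were at −0.38 and −0.35 (limma adjusted p = 0.307 and 0.317). All 6 ATPases and all 4 non-catalytic beta genes were negative, and the alpha rings were spread closely around 0, from −0.13 (Psma5) to 0.04 (Psma4). Without A26 all 7 alpha genes were negative, from −0.21 (Psma6) to −0.04 (Psma4), and of the 5 genes above Psmd4 alone had an unadjusted p under 0.05 (limma adjusted p = 0.441).

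The catalytic genes split in scWAT, with the 3 constitutive ones at −0.34 (Psmb5), −0.24 (Psmb6) and −0.26 (Psmb7) and the 3 immunoproteasome ones at 0.41 (Psmb8), 0.41 (Psmb9) and 0.21 (Psmb10), none past the threshold (limma adjusted p between 0.418 and 0.671). Psmb8 had 87.8, 211 and 89.3 TPM in KO scWAT A24, A26 and A30, against 82.1, 83.4, 129, 62.2 and 100 TPM in WT scWAT. Psmb9 had 42.7, 73.1 and 27.3 TPM in KO scWAT, against 31.4, 26.9, 45.4, 20.8 and 47.7 TPM in WT scWAT. Psmb10 had 101, 112 and 69.5 TPM in KO scWAT, against 107, 80.7, 79.3, 52.1 and 89.0 TPM in WT scWAT. The highest value of each was that of A26, the library with the lymphocyte markers, and the other KO values lay within the WT range. Without A26 the 3 log2 fold changes were −0.0035, 0.05 and 0.07, and those of Psmb5, Psmb6 and Psmb7 were −0.39, −0.27 and −0.26. Psmb6 had 207, 234.5 and 233 TPM in KO scWAT, against 311, 264, 271, 219 and 272 TPM in WT scWAT, where only A12 reached into the KO range.

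Of the genes around the proteasome in scWAT, Psmf1, an inhibitor of the core, had 26.04, 23.99 and 23.7 TPM in KO, against 31.2, 31.3, 32.1, 30.1 and 31.1 TPM in WT. Its groups did not overlap and its log2 fold change was −0.33 ± 0.11 (limma adjusted p = 0.234; −0.31 and 0.464 without A26). Psme4 was at −0.59 ± 0.20 (adjusted p = 0.241), with 1 KO value inside the WT range. The light chain of MHC class I, B2m, did not overlap either and was at −0.55 ± 0.17 (limma adjusted p = 0.225), and Irf1, an interferon-induced transcription factor, was at 0.71 ± 0.28 (adjusted p = 0.289; 0.32 without A26). No gene of the 5 lists passed: 0 of 5 activators and inhibitors, 0 of 15 assembly factors, 0 of 7 regulators, 0 of 9 ubiquitin genes and 0 of 13 of MHC class I. Among them Rad23b and Ubqln1, shuttles that carry substrates to the proteasome, were at −0.40 and −0.25, Nfe2l1 and Nfe2l2 at −0.32 and 0.24, and Ubb and Rps27a at −0.40 and 0.54 (limma adjusted p from 0.320 to 0.509).

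The difference between the tissues in the genotype effect was tested itself, as an interaction over all 16 libraries (KO minus WT in heart, minus KO minus WT in scWAT). It was positive for 36 of 37 genes, against 67.4% of all 11536 genes tested. The median was 0.65 over the 37 and 0.24 over all genes. By limma, 0 of 37 passed, as did 0.0607% of all genes, and at an unadjusted p under 0.05 24 were positive and 0 negative, against 17.0% and 3.42%. The 4 genes outside the catalytic ones with the smallest p were Psmd13 (0.98 ± 0.26), Psmd8 (1.09 ± 0.30), Psmc3 (0.78 ± 0.23) and Psmb1 (0.89 ± 0.27), with limma adjusted p between 0.0898 and 0.101. Without A29, 23 of 37 were called, all positive, against 22.4% of all genes called positive, and with median-of-ratios scaling as well 2 were called (Psmd8 and Psma5), against 10.97%. The constitutive catalytic genes stood at 0.66 to 0.78 and the immunoproteasome genes at −0.06 (Psmb9), 0.19 (Psmb8) and 0.56 (Psmb10). Leaving out scWAT A26 gave 0.30 for Psmb9 and 0.60 for Psmb8, and leaving out heart A29 gave 0.30 and 0.64. With each of the 16 libraries left out in turn, Psmb9 was positive in 6 and negative in 10.

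Between the tissues of WT mice, heart had a lower TPM of every subunit than scWAT. All 37 were lower in heart by limma, against 78.5% of all genes lower and 8.12% higher. Their median log2 fold change (heart over scWAT) was −1.47, or 0.20 below the all-gene median of −1.27. Mitochondrially encoded transcripts took 51.9 to 60.6% of TPM in WT hearts, against 6.14 to 14.4% in WT scWAT. With median-of-ratios scaling the split was 10 higher and 9 lower, against 31.8% and 35.1% of all genes, and with mitochondrially encoded genes removed it was 2 higher and 22 lower, against 19.3% and 49.6%. What held under all 3 scalings was the low standing of Psmb8, Psmb9, Psmd4, Psmd8, Psmd14, Psma5 and the 3 chaperones, each called lower in each.

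Within WT hearts the highest mean level was that of Psmc3 (104 TPM), followed by Psmb7 (96.3 TPM) and Psmb6 (94.3 TPM), neighbours that differ by less than their spread between mice, and the constitutive 19S and 20S subunits had a median of 54.3 TPM. The lowest were Psmd10 (4.33 TPM), Psmb9 (4.93 TPM) and Psmd5 (5.44 TPM). In WT scWAT the highest was Psmb6 (267 TPM), followed by Psma7 (207 TPM), Psmb1 (206 TPM) and Psma6 (204 TPM), and the lowest was Psmd10 (18.4 TPM), followed by the other chaperones Psmd5 and Psmd9 (28.5 TPM). Within WT hearts the SD of log2(TPM + 1) had a median of 0.19 over the 37 genes, against 0.31 over all genes, and within WT scWAT 0.25 against 0.27. Against genes of similar level the members' median was lower in heart (0.19 against 0.30) and not in scWAT (0.253 against 0.246).

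Psmb8 and Psmb9 had the 2 largest differences between the tissues of the 37 genes. Psmb8 averaged 10.5 TPM in WT hearts and 91.4 TPM in WT scWAT, a log2 fold change of −2.98 ± 0.21 (limma adjusted p = 5.76e-08). Psmb9 averaged 4.93 and 34.5 TPM in WT hearts and WT scWAT, at −2.57 ± 0.28 (limma adjusted p = 2.39e-06), and Psmb10 23.4 and 81.7 TPM, at −1.75 ± 0.22 (adjusted p = 9.20e-06). The constitutive Psmb5, Psmb6 and Psmb7 stood at −0.91, −1.49 and −0.94. Relative to the median of all genes, the 3 immunoproteasome genes had a median of −1.31 and the 3 constitutive ones of 0.33. Under median-of-ratios scaling Psmb8 and Psmb9 remained lower (−1.59 and −1.26) and Psmb10 did not pass (−0.33, limma adjusted p = 0.106), whereas Psmb5 and Psmb7 were at 0.53 and 0.51.

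Of the genes that work with the proteasome, Psme2 was at −2.72 ± 0.17 (limma adjusted p = 2.24e-08), Pomp at −2.02 and Psmf1 at −1.97. Of these genes Psme4 alone was called higher in heart (Ecpas at 0.29 and Foxo3 at 0.38 were positive without passing; limma adjusted p = 0.117 and 0.132), with 64.6, 70.1, 75.2 and 76.96 TPM in WT hearts, against 36.9, 36.9, 26.7, 31.3 and 23.6 TPM in WT scWAT. It was higher in heart under all 3 scalings (1.20 ± 0.17 in TPM, 2.63 and 2.21 in the others; limma adjusted p = 2.14e-05 in TPM). All 13 genes of MHC class I presentation were lower in heart by limma in TPM, against 78.5% of all genes, with B2m at −4.59 and H2-D1 at −4.41. Beside the same 78.5%, all 7 macrophage markers were lower in heart in TPM (148 to 234 TPM in WT hearts, 695 to 1770 TPM in WT scWAT), as were all 4 pan-leukocyte markers (9.54 to 20.6 TPM in WT hearts, 86.5 to 151 TPM in WT scWAT). Their part in the values of Psmb8, Psmb9 and Psmb10 was not tested.

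**Figure D4:**
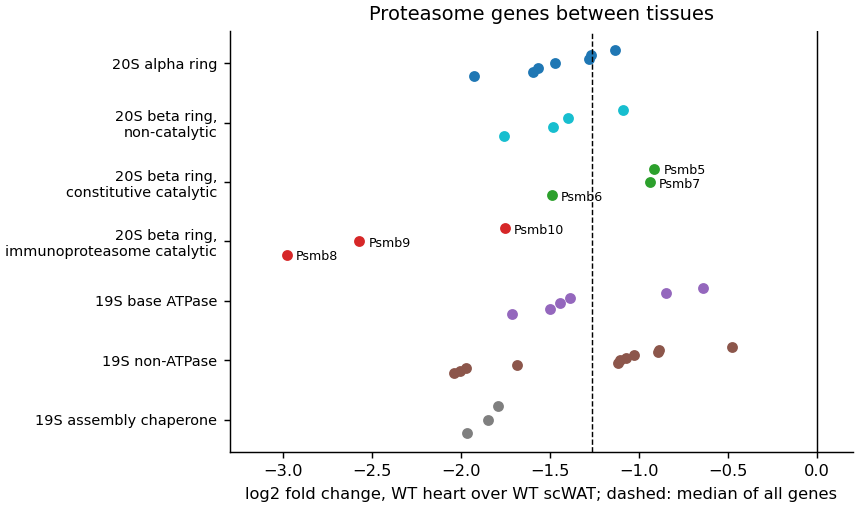
Log2 fold change of WT heart over WT scWAT for each of the 37 genes, in rows by role; the dashed line is the median of all genes tested (−1.27). Psmb8 (−2.98) and Psmb9 (−2.57) lie farthest to the left, and Psmb5 and Psmb7 lie to the right of the line.

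The ratio of an immunoproteasome gene to the gene it replaces is free of the scaling between libraries, apart from the pseudocount. Psmb8 relative to Psmb5 was 0.157, 0.0639, 0.200 and 0.237 in KO hearts, against 0.113, 0.130, 0.134 and 0.144 in WT hearts. In scWAT the same ratio was 0.675, 1.65 and 0.875 in KO, against 0.318, 0.484, 1.18, 0.586 and 0.656 in WT. In this ratio KO hearts A25, A30 and A31 were above every WT heart and A29 below every one, and KO scWAT A24 and A30 lay within the WT range. The hearts stood in the same way for Psmb10/Psmb7. For Psmb9/Psmb6, heart A25 (0.0475) lay within the WT range (0.0302 to 0.0641). In scWAT, A24 as well as A26 was above every WT library for Psmb9/Psmb6 (0.206 and 0.312, against at most 0.1755). The same held for Psmb10/Psmb7 (0.645 and 0.7325, against at most 0.522).

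By exact permutation tests (2-sided, adjusted over 9 ratios), the mean log2 ratios of KO and WT were not separated in either tissue. The differences in heart were 0.16 for Psmb8/Psmb5, −0.06 for Psmb9/Psmb6 and 0.34 for Psmb10/Psmb7 (exact p = 0.743, 0.914 and 0.257; the smallest possible is 0.0286). Without A29 they were 0.52, 0.25 and 0.56 (exact unadjusted p = 0.0286, 0.429 and 0.0286). In scWAT they were 0.75, 0.65 and 0.47 (exact p = 0.196, 0.143 and 0.0893; the smallest possible is 0.0179), and without A26 0.39, 0.33 and 0.33. Between the tissues of WT mice, heart minus scWAT was −2.07 for Psmb8/Psmb5, −1.08 for Psmb9/Psmb6 and −0.81 for Psmb10/Psmb7 (exact p = 0.00794, 0.00794 and 0.0159; adjusted p = 0.0357, 0.0357 and 0.0476). This test takes the libraries as independent, although 4 mice gave both tissues. In the 4 within-mouse differences (the mouse as replicate block) none passed (exact permutation adjusted p = 0.257 each). With 4 pairs the threshold cannot be reached. None passed with 1 library left out either (exact permutation adjusted p from 0.0536 to 0.107). There the smallest possible exact p is 0.0179 or 0.0286. This cannot pass after adjustment over 9 ratios when the p-values of the other ratios are kept, as was done. These outcomes were thus fixed by the number of libraries together with the kept p-values. The differences stayed negative in all of these runs.

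As a share of the TPM of the 6 catalytic genes, the 3 immunoproteasome genes took 16.9, 8.45, 17.9 and 17.5% in KO hearts A25, A29, A30 and A31, against 10.6, 11.3, 13.7 and 14.2% in WT hearts A5, A7, A8 and A14. Again 3 KO hearts were above every WT heart and A29 was below every one. In scWAT they took 31.9, 43.5 and 27.7% in KO A24, A26 and A30, against 21.6, 22.9, 32.3, 21.6 and 28.3% in WT A5, A7, A8, A12 and A14. Only A26 was above the WT range. A sum over chosen genes was given no test.

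**Figure D5:**
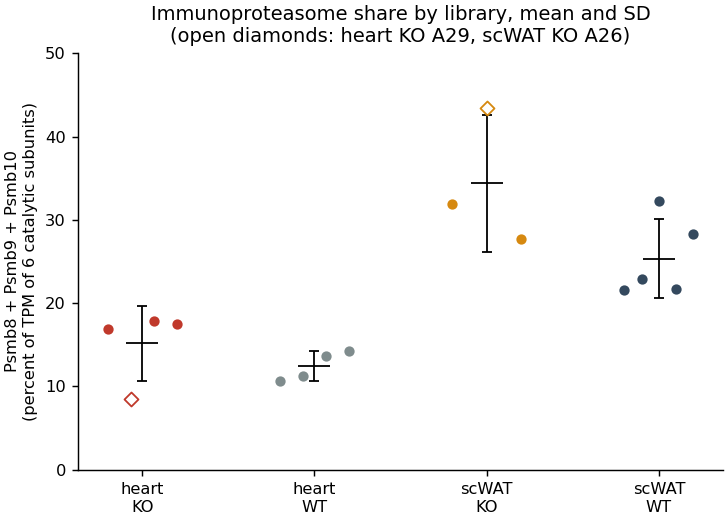
Share of Psmb8, Psmb9 and Psmb10 in the summed TPM of the 6 catalytic genes, by library; crosses and bars are the mean and SD, and open diamonds are heart KO A29 and scWAT KO A26. A29 (8.45%) is the lowest heart and A26 (43.5%) the highest library.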

How the data were processed

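The authors deposited 1 table of TPM per library, per the file headers. RNA was extracted from frozen tissue with Trizol and libraries were built with an Illumina TruSeq RNA kit, per the labels' protocols. Which aligner, quantifier, annotation and build made the TPM values is not given in the sources used here. TPM sums to 1e+06 in each library and keeps no depth, so depth and counting error are unknown. No pair of libraries held identical values. Groups and mouse numbers came from the labels, and 5 of the 11 mice gave both tissues.

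Values were analysed as log2(TPM + 1) with limma 3.58.1 in R 4.3.3 (eBayes with trend, 2-sided). Genes entered a fit when their mean there reached 1 TPM (for the interaction, in each tissue), and p-values were adjusted by Benjamini-Hochberg over all genes of the fit, with a threshold of 0.05. This scale understates the change of low genes. Heart and scWAT were fitted apart, and the interaction over all 16 libraries. The code was tested on simulated data. Ratios of paired catalytic genes were tested by exact permutation over libraries. Tests cover the spread between mice. The same mouse number marks the same animal, so the 4 WT mice with both tissues pair the tissues. Their deviations from the group means correlated at 0.10, 0.04, 0.02 and 0.12 over 13093 genes (A14, A5, A7 and A8).

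The members and lists were chosen with earlier results of these data known. Fold changes were named for the 6 catalytic genes and, per comparison, for up to 4 further members and up to 2 genes of each of 5 lists, taken by smallest p. Those given beyond that rule, such as Psmd3, Psmd8 in heart and Psme1, were chosen after their values were seen. In the lists, Ecpas and Ufd1 stand in the tables as AI314180 and Ufd1l, and Shfm1 and Ecm29 were not matched. The alternatives covered other pseudocounts (0.25, 5), other minimum levels (none, 5 TPM), median-of-ratios scaling, removal of the 13 mitochondrially encoded genes, array weights, a joint fit, table name style as a covariate in scWAT, each library omitted singly, and the mouse as block. Singling out the heart fit without A29, and omitting A29 together with another scaling, were chosen after seeing the data.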

Additional observations from a re-analysis of the deposited data

Results flagged for a closer look

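Of 104 groups of 4 or 5 values examined for a library standing apart from the others of its group (gap to the nearest value over the whole range, Dixon's 95% limit), 7 did, against about 1 in 20 by chance. The KO scWAT groups, with 3 values each, were too small to be examined, so A26 could not be flagged. Of the 7 values, 6 were KO heart A29. It was lower than the other 3 KO hearts in Psma5 (27.3 TPM, against 56.5 to 61.1 TPM), the chaperone Psmd5 (5.06 TPM, against 10.6 to 11.7 TPM), Pomp (70.2 TPM, against 109 to 112 TPM) and Psme2 (37.4 TPM, against 65.1 to 68.0 TPM). It was also lower in the share of all TPM taken by the proteasome genes (0.187%, against 0.270 to 0.284%) and in the share of the immunoproteasome genes among the 6 catalytic genes (8.45%, against 16.9 to 17.9%). The remaining value was that of Ubqln1 in WT heart A5 (10.1 TPM, against 14.4 to 15.1 TPM in the other WT hearts).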

How the results depend on the processing

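In heart, 0 of 37 genes passed with all libraries. The number higher was 33 with array weights, against 43.1% of all genes called higher and 22.7% called lower. It was 6 in 1 fit over all 16 libraries, against 6.24% of all genes. With the mouse as a replicate block it was also 6, against 731 of 11981 genes. When 1 library was left out it was between 0 and 30, and 30 only without A29, against 34.8% of all genes. Without A29 it was 21 with mitochondrially encoded genes removed and 5 with median-of-ratios scaling, where 1 was lower, the median was 0.0877 and Psmb6 −0.043. Median-of-ratios scaling alone gave a median of 0.12. In scWAT no alternative gave a call. Psmb8 there lay between −0.0035 (without A26) and 0.63. With array weights the interaction gave 31 calls, where 3461 of all 11536 genes were called positive and 1802 negative. With 1 library left out it gave between 0 and 23 (23 without A29, against 22.4% of all genes called positive). The interaction gave 2 calls with median-of-ratios scaling and without A29, against 10.97% of all genes called positive. In it Psmb8 was −0.0749 with median-of-ratios scaling, −0.0155 with mitochondrially encoded genes removed and between −0.0445 and 0.64 with 1 library left out, and Psmb9 0.20 with array weights and between −0.39 and 0.30. Between tissues, median-of-ratios scaling gave 10 higher and 9 lower (median −0.0213, 0.0377 relative to all genes; Psmb5 0.53, Psmb7 0.51, Nfe2l1 0.38), and removal of mitochondrially encoded genes 2 higher and 22 lower (median −0.47; Psmb5 0.0915, Psmb7 0.0687). The median relative to all genes was −0.53 with a pseudocount of 5 and −1.06 with no filter. With the mouse as a block in the tissue comparison all 37 remained lower, and the interaction had 0 calls.

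Ratio differences in heart lay between −0.0469 and 0.52 for Psmb8/Psmb5 and between −0.25 and 0.25 for Psmb9/Psmb6 when 1 library was left out. Between tissues they lay between −2.29 and −1.82 (Psmb8/Psmb5), −1.19 and −0.90 (Psmb9/Psmb6) and −0.92 and −0.73 (Psmb10/Psmb7). With 1 library fewer, and the p-values of the other ratios kept, the exact test cannot reach the adjusted threshold. Within-mouse differences (the replicate block) were −2.07, −1.17 and −0.92, where 4 pairs cannot reach the threshold. Psmb9/Psmb6 was −0.50 with a pseudocount of 5 and did not pass. The cause of each other change was not tested. Depth cannot be judged from TPM, and 3 or 4 KO libraries a tissue limit all of these values.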
